A study of Mus musculus with 18 samples.

Results

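Microglia are the resident macrophages of the brain, and in the undisturbed brain they carry a set of genes that other macrophages hold at low levels or lack. The 9 genes described here are members of that homeostatic set, given as a fixed list of symbols: P2ry12, P2ry13, Cx3cr1, Gpr34, Siglech, Fcrls, Sall1, Tmem119 and Olfml3. All 9 were found by gene identifier among the 48795 genes of the deposited table. Homeostatic genes are known to fall when microglia become activated, and monocyte-derived macrophages that enter a glioma hold little of most of them. Their level in a glioma sample is therefore often read beside genes that all macrophages share.

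The 18 libraries hold messenger RNA of GL261, a mouse glioma line labelled with green fluorescent protein (GFP), and of tumours grown from it in C57BL/6 wild-type (WT) mice or in Pfp/Rag2-/- mice. Pfp/Rag2-/- mice have no perforin, with which cytotoxic lymphocytes perforate their targets, and no Rag2, so that T and B cells do not mature, while natural killer cells and macrophages still develop. Tumours came from symptomatic animals, 6 of each host, and were dissociated with collagenase before sorting. The 6 groups of 3 libraries were GFP- non-tumour cells sorted from WT tumours, unsorted Pfp/Rag2-/- tumours, unsorted WT tumours, GFP+ tumour cells sorted from Pfp/Rag2-/- tumours, GFP+ tumour cells sorted from WT tumours, and sorted GFP+ cells kept in culture. Every group except the sorted GFP- cells contains GL261 tumour cells, and no GFP- fraction of the Pfp/Rag2-/- host was analysed here. The sample labels call the GFP- libraries the negative sort of the GFP-labelled tumours, while the text of the series speaks of tumours without the GFP label as controls, and the labels are followed. Animal age is not given, and nothing says whether a library was made from 1 mouse or from a pool, so p-values measure the spread between these libraries, which may be partly technical. Library numbers follow the triplicate numbers of the labels.

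The libraries held 19172814 to 21141662 reads assigned to genes. Values are normalized counts, the authors' read counts divided by 1 size factor per library, and 1 read was worth 1.31 to 1.54 normalized counts in the GFP- libraries and 0.871 to 0.958 in the others. Prf1, the perforin gene, had 7.11, 13.6 and 16.2 normalized counts in unsorted Pfp/Rag2-/- tumours, against 109, 99.0 and 139 in unsorted WT tumours. Rag2 was at 0 in all WT libraries and had at most 6.34 normalized counts in a Pfp/Rag2-/- library. Counts per whole gene do not show whether the deleted parts were read, so they do not check the genotype. The GFP- libraries carried the defining macrophage genes at high level, with 29671 to 32041 normalized counts of Ptprc, the pan-leukocyte gene CD45, against 0.943 to 0.954 in culture. The 17 pan-macrophage genes listed for comparison (Ptprc, Cd68, Itgam, Csf1r, the C1q genes and others) summed to 533531 to 651956 normalized counts per GFP- library, and to at most 44.8 in a cultured library, where 7 of the 17 were at 0 in all 3 libraries. Among the sorted GFP+ libraries, Pfp/Rag2-/- library 1 stood apart with 1845 normalized counts of Ptprc, against 49.6 and 49.7 in libraries 2 and 3, and WT library 1 had 946, against 78.9 and 194 in libraries 2 and 3. Values that change without these libraries numbered 1 are given beside the results they touch.

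By role, 4 of the 9 genes encode receptors coupled to G proteins. P2ry12 and P2ry13 are receptors for extracellular ADP, the signal through which microglial processes reach injured cells. Cx3cr1 is the receptor of fractalkine (Cx3cl1), a ligand made by neurons, and Gpr34 responds to lysophosphatidylserine. Siglech and Fcrls encode surface proteins of the sialic acid-binding and Fc receptor-like families, and Siglech is also a marker of plasmacytoid dendritic cells. Sall1 is a transcription factor that maintains microglial identity. Tmem119 is a transmembrane protein used as a microglial marker, first studied in bone-forming cells, and Olfml3 is a secreted protein with an olfactomedin-like domain that other cell types also make.

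The genes lie on 6 chromosomes of the GRCm38 build, with P2ry12 (chr3:59216272-59262871, minus strand) and P2ry13 (chr3:59207892-59210882, minus strand) next to each other inside the oppositely oriented gene Med12l. Of the exon bases of P2ry12, 9 (0.353%) were shared with Med12l, and P2ry13 shared none. Med12l had 203 to 244 reads in the GFP- libraries, against 890 to 1322 reads of P2ry12, and 1 to 4 reads in culture. The wide annotated span of Cx3cr1 on chromosome 9 runs over 5 protein-coding genes, including Wdr48 and Xirp1, with no exon base in common, and shares 78 exon bases (1.73%) with the antisense gene Gm33858. Gpr34 on chromosome X lies inside Cask and shares no exon base with it. The library kit keeps strand, but whether reads were counted by strand is not given, so reads of overlapping genes cannot be told apart in these stretches.

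Start-region sequences from RefSeq (build GRCm38.p6) were held for 7 of the 9 genes, all except Tmem119 and Gpr34. These 7 genes had 9 start regions together. They run from 250 bases before to 50 bases after the annotated start. The 4 shown are those of the neighbouring ADP receptors, of Fcrls, with the most matches of the motif searched, and of Cx3cr1, with none, and capitals mark AGGAAG on either strand, the core that PU.1 (Spi1), the macrophage lineage factor, is known to bind. Each is written 5′ to 3′ along its gene's own strand, which is minus for all 4.

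P2ry12 chr3:59262936-59263235: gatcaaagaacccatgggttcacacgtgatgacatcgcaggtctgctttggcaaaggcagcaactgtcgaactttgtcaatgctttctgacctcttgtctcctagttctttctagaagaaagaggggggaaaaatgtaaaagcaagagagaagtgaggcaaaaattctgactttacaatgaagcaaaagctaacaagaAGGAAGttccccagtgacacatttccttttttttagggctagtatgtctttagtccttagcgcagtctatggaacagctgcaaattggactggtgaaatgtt
P2ry13 chr3:59210833-59211132: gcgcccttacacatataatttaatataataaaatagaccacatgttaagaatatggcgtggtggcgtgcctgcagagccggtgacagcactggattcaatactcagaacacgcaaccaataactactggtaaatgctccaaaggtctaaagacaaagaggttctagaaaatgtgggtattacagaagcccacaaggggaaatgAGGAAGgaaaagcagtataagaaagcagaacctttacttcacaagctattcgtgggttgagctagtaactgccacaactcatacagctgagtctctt
Fcrls chr3:87263475-87263774: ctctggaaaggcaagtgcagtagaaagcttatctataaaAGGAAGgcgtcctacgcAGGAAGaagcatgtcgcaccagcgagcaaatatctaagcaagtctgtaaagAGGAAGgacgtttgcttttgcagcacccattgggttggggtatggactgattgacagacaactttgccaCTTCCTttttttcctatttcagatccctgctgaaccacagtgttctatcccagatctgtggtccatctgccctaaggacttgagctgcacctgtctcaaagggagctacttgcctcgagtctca
Cx3cr1 chr9:120068247-120068546: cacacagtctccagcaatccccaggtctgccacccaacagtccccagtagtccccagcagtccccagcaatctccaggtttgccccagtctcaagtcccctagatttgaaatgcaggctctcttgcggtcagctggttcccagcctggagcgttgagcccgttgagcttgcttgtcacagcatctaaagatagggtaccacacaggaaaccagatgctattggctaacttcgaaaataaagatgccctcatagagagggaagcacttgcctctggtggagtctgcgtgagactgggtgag

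AGGAAG occurred in 5 of the 9 start regions of the 7 genes (P2ry12, P2ry13, Fcrls, Sall1 and Olfml3) and in 35.4% of all 32851 start regions. The overlapping letters GGAAGT occurred in 4 of these 9 regions (P2ry12, Fcrls, Sall1 and Siglech) and in 23.8% of all. Fcrls held 4 matches of AGGAAG, P2ry12 and P2ry13 held 1 each, and Cx3cr1 held none. The longer form GAGGAAGT, present in 3.20% of all start regions, was not found in the 7 genes. All were searched on both strands. These are matches of letters in this window only.

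In the sorted GFP- cells of WT tumours all 9 genes were abundant. Per kilobase of exon, which allows genes to be compared, Tmem119 was at 1642 ± 666 normalized counts and Cx3cr1 at 1372 ± 621 (SD, n = 3 for each of these levels). Fcrls followed at 807 ± 323, P2ry13 at 705 ± 63.4, P2ry12 at 651 ± 100.2 and Olfml3 at 649.5 ± 149. Lower levels were found for Siglech, at 335 ± 86.9, Gpr34, at 296 ± 62.3, and Sall1, at 160 ± 72.8. Library ranges of neighbours in this order overlapped, except between Olfml3 and Siglech and between Gpr34 and Sall1. On average over the 9 genes, the per-kilobase level was 511 to 946 per GFP- library, against 5155 to 10203 over 20 genes of monocyte-derived macrophages and 20288 to 24930 over the 17 pan-macrophage genes. Such arithmetic means follow the most abundant genes of a list, so they do not place each member. Against the geometric mean of the monocyte-derived macrophage genes, in normalized counts, members in GFP- cells ranged from 14.2% (Gpr34) to 149% (Cx3cr1). All these values are levels of RNA, and the share of microglia among GFP- cells was not measured.

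The 3 GFP- libraries differed from each other in these genes. The values of Cx3cr1 were 5796, 3591 and 9150 normalized counts in libraries 1, 2 and 3, and those of Sall1 were 1109.5, 402 and 1011. Library 2 was the lowest of the 3 for 7 of the 9 genes, the exceptions being P2ry13, lowest in library 1, and Siglech, lowest in library 3. The same library was the lowest for 17 of 20 other microglia-enriched genes, and also for 8 of 8 oligodendrocyte genes, 8 of 8 natural killer cell genes, 10 of 11 T cell genes and 11 of 12 pericyte and fibroblast genes. It was the highest for 16 of the 17 pan-macrophage genes and for 15 of the 20 monocyte-derived macrophage genes, among them Arg1, an arginine-degrading enzyme of tumour macrophages, with 75065 normalized counts, against 34904 in library 1 and 23790 in library 3. With 3 libraries these rankings were not tested.

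**Figure D1:**
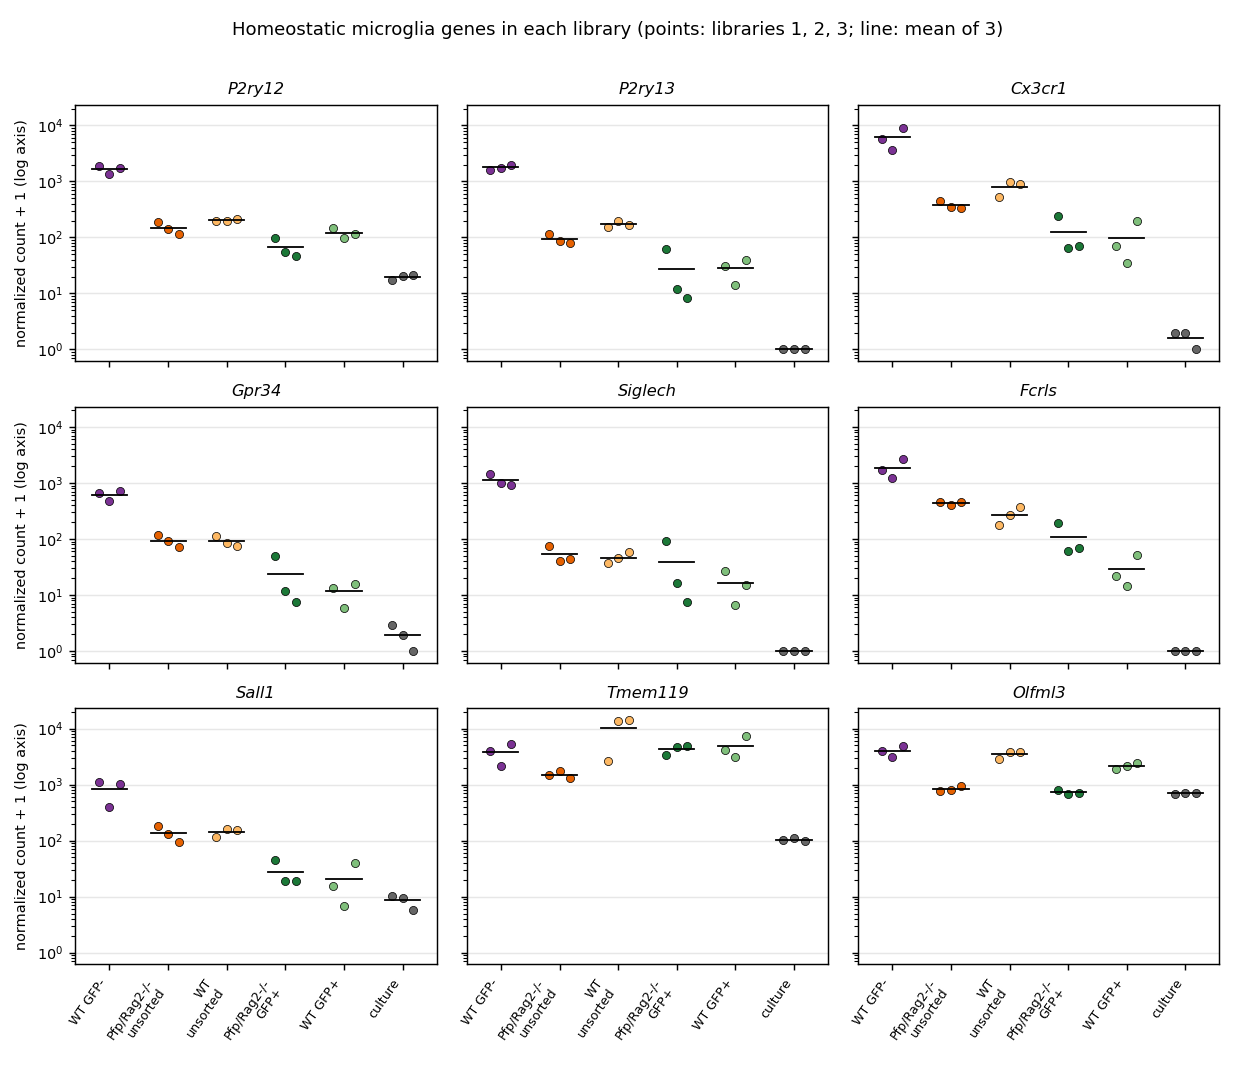
Normalized count plus 1 (log axis) of each of the 9 genes in the 18 libraries, with a point per library and a line at the mean of the 3 libraries of a group. For 7 genes the GFP- libraries stand above all others and culture has the lowest mean, whereas Tmem119 in GFP+ cells and both Tmem119 and Olfml3 in WT unsorted tumours overlap the GFP- libraries, and Olfml3 is at 668 to 715.5 in culture. The share of all genes that separate in this way was not counted.

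Cells sorted as GFP- held 8 of the 9 genes at higher levels than cells sorted as GFP+ from the same host. The test was limma on log2(normalized count + 1) with Benjamini-Hochberg adjustment over 16083 genes. The same test, over the genes of each comparison, gave every adjusted p in this text unless another method or fit is named. In this comparison 42.7% of all genes tested were called higher and 33.7% lower. The median log2 difference of the 9 genes was 5.83, beside 6.22 for the 17 pan-macrophage genes (17 higher), 6.33 for the 20 monocyte-derived macrophage genes (20 higher) and 0.19 over all genes. In bulk RNA, fewer cells of a type and less RNA per cell cannot be told apart.

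The ADP receptors differed from each other in the GFP+ cells. P2ry12 had 1861, 1371 and 1738 normalized counts in GFP- cells, against 147.5, 96.9 and 115 in WT GFP+ cells, a log2 difference of 3.79 (SE 0.20, adjusted p = 3.05e-05). P2ry13 had 1629, 1769 and 1949 in GFP- cells, against 29.7, 13.3 and 37.8 in WT GFP+ cells, a log2 difference of 6.11 (SE 0.37, adjusted p = 4.19e-05). Both groups were separate for both genes, and P2ry12 stayed at 5.85% to 8.90% of its GFP- mean in WT GFP+ cells, where P2ry13 was at 0.746% to 2.12%. In culture P2ry12 had 16.1, 19.8 and 20.0 normalized counts (17, 21 and 21 reads), while P2ry13 was without a single read there, which allows up to 3 reads in each.

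For Cx3cr1 the log2 difference between GFP- and GFP+ cells was 6.21 (SE 0.65, adjusted p = 0.000231), with 68.0, 34.2 and 192.5 normalized counts in WT GFP+ cells. Gpr34 had 672.5, 469.9 and 713 normalized counts in GFP- cells, against 12.5, 4.75 and 14.7 in WT GFP+ cells, a fold of 57.1 on this scale. Siglech had 1468.5, 1017 and 916 in GFP- cells, against 25.9, 5.70 and 13.8 in WT GFP+ cells, a fold of 80.1. For these receptors the 2 groups were far apart. Sall1 had 14.4, 5.70 and 38.7 in WT GFP+ cells and was 48-fold higher in GFP- cells. Fcrls, with 1717, 1226 and 2704.5 in GFP- cells, against 21.1, 13.3 and 51.6 in WT GFP+ cells, was 70.1-fold higher there. The adjusted p of these 5 genes lay between 7.18e-05 and 0.000509, and all 8 genes were also called without WT GFP+ library 1.

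Olfml3 and Tmem119 did not follow this order of size. Olfml3 had 4030.3, 3067 and 4907 normalized counts in GFP- cells, against 1935.5, 2175 and 2399 in WT GFP+ cells, and was 1.82-fold higher (log2 difference 0.86, SE 0.18, adjusted p = 0.00455). Tmem119 had 3970.0, 2179.9 and 5251 in GFP- cells, against 4224, 3063 and 7288 in WT GFP+ cells. The 2 groups of Tmem119 overlapped, and its log2 difference of -0.35 had a 95% interval of -1.35 to 0.65 (adjusted p = 0.467). Each WT GFP+ library was above the GFP- library of the same number, and a limma fit with the number as a block gave an adjusted p of 0.037. The labels do not say what a number shares, so pairing was not assumed.

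Both genes were also present in the cultured glioma cells, where pan-macrophage genes were near 0. Olfml3 had 668, 715.5 and 708 normalized counts there, and Tmem119 had 102, 108 and 97.3. Of the other 7 genes, P2ry12 and Sall1 had low values in culture, with 9.45, 8.48 and 4.77 for Sall1. Siglech, Fcrls and P2ry13 had no read in culture, Cx3cr1 had 2 reads over the 3 libraries and Gpr34 had 3.

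In WT tumours, GFP+ cells held Tmem119 at 44.0 times its cultured level (log2 difference 5.46, SE 0.26, adjusted p = 6.51e-07). In Pfp/Rag2-/- tumours they had 3404, 4742 and 4889.6 normalized counts and 41.5 times the cultured level (log2 difference 5.37, SE 0.13, adjusted p = 3.91e-09). Olfml3 in WT GFP+ cells was at 3.10 times its level in culture (log2 difference 1.63, SE 0.08, adjusted p = 7.84e-07). In Pfp/Rag2-/- GFP+ cells, with 815.5, 688 and 715 normalized counts, it differed from culture by 0.08 on the log2 scale, with a 95% interval of -0.08 to 0.25 (adjusted p = 0.328). Tmem119 RNA was thus higher in GFP+ cells of both hosts than in culture, and Olfml3 RNA was called higher in GFP+ cells of the WT host alone. The 2 comparisons share the cultured libraries, and the direct comparison of hosts is given with the host differences.

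In the comparison of WT GFP+ cells with culture 6 members passed the filter on low values, and in that of Pfp/Rag2-/- GFP+ cells with culture 6 did. Of all genes tested, 35.1% were called higher in Pfp/Rag2-/- GFP+ cells and 30.3% in WT GFP+ cells. Members at or near 0 in culture could pass only through the tumour libraries, so the number called among those that passed is not read as a result. Against the floor of 3 reads per cultured library, Fcrls was at least 37.3-fold higher in Pfp/Rag2-/- GFP+ cells and at least 10.1-fold higher in WT GFP+ cells. P2ry13 was at least 9.44-fold higher in Pfp/Rag2-/- GFP+ cells and at least 9.47-fold higher in WT GFP+ cells. Siglech was at least 13.5-fold higher in Pfp/Rag2-/- GFP+ cells and at least 5.32-fold higher in WT GFP+ cells. In Pfp/Rag2-/- GFP+ cells these bounds rested largely on library 1, without which they were 22.3-fold for Fcrls, 3.24-fold for P2ry13 and 3.88-fold for Siglech. In WT GFP+ cells without library 1 the bound of Siglech was 3.43-fold. Cx3cr1, with 2 reads in culture, gave a ratio to culture of 197 (95% counting interval 54.7 to 1630.3) in Pfp/Rag2-/- GFP+ cells and of 156 (43.2 to 1289) in WT GFP+ cells. Without library 1 that ratio was 104.5 (28.9 to 863.2) in Pfp/Rag2-/- GFP+ cells.

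Pan-macrophage genes were measurable in the sorted GFP+ libraries, and the source of this RNA was not tested. The pan-macrophage genes stood, by their median, at 2.35%, 0.429% and 0.400% of their GFP- mean in Pfp/Rag2-/- GFP+ libraries 1, 2 and 3, against 2.48%, 0.587% and 1.38% in WT GFP+ libraries 1, 2 and 3. P2ry13, at 3.48%, 0.619% and 0.413% of its GFP- mean in Pfp/Rag2-/- GFP+ cells, and Siglech, at 8.21%, 1.38% and 0.569%, were likewise highest in library 1 there. In WT GFP+ cells P2ry13, Cx3cr1, Gpr34, Fcrls and Sall1 were highest in library 3, and Siglech in library 1. How much of each member in GFP+ libraries belongs to carried-over host cells was not tested. For Tmem119 the share of its GFP- mean was 80.6% to 192% in WT GFP+ cells, and for Olfml3 48.4% to 60.0%, both far above the pan-macrophage median in the same libraries.

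**Figure D2:**
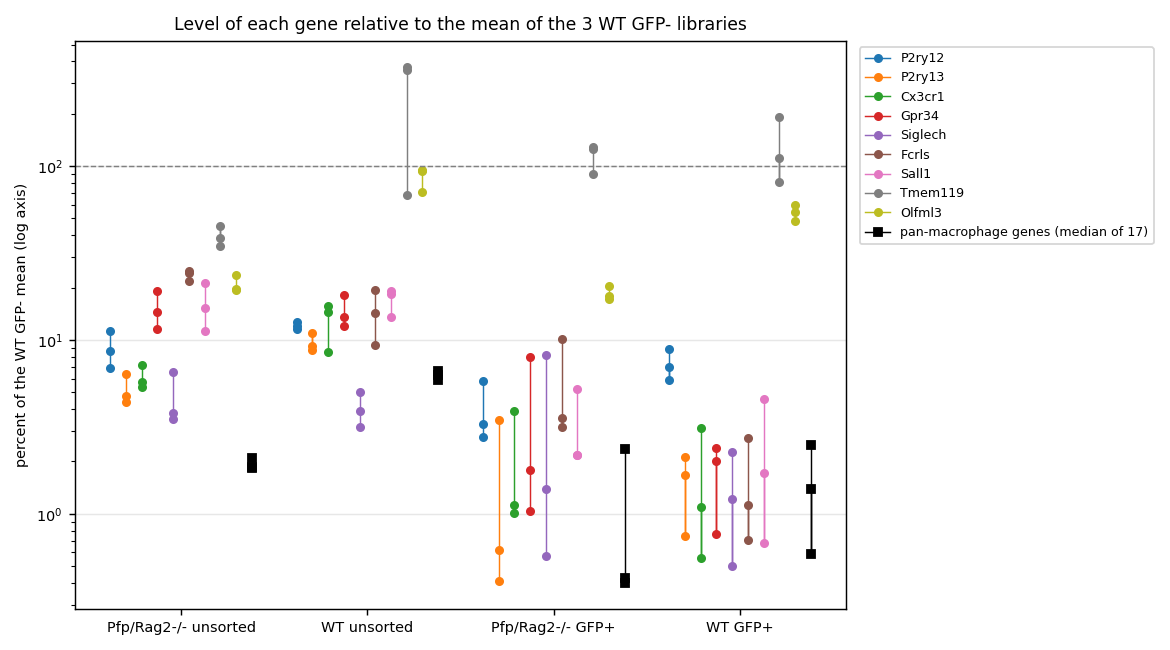
Level of each gene in each library as a percent of its mean in the 3 WT GFP- libraries (log axis), for unsorted tumours and sorted GFP+ cells of both hosts, with squares at the median of 17 pan-macrophage genes. Tmem119 and Olfml3 stand above the other 7 genes in all 4 groups, except that Fcrls and Sall1 reach Olfml3 in Pfp/Rag2-/- unsorted tumours, and the pan-macrophage median is at 1.83% to 2.09% there, against 5.86% to 6.66% in WT unsorted tumours.

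Against unsorted WT tumours, P2ry12, P2ry13, Cx3cr1, Gpr34, Siglech, Fcrls and Sall1 were higher in sorted GFP- cells, 7 of the 9, where 39.9% of all 16418 genes tested were called higher and 33.8% lower. Siglech, at 36.0, 44.1 and 56.6 normalized counts in unsorted WT tumours, was 24.3-fold higher in GFP- cells (log2 difference 4.60, SE 0.26, adjusted p = 5.43e-06). P2ry13 was 10.3-fold higher, P2ry12 8.16-fold, Cx3cr1 7.50-fold, Fcrls 6.89-fold, Gpr34 6.80-fold and Sall1 5.39-fold, with adjusted p between 2.12e-06 and 0.000769. Every GFP- library was above every unsorted WT library for these 7 genes, and the share of all genes that separate in this way was not counted. Tmem119 had 2598, 13639.7 and 14211 in unsorted WT tumours, a log2 difference of -1.16 with a 95% interval of -2.68 to 0.36 (adjusted p = 0.143). For Olfml3, with 2830.5, 3803 and 3769 in unsorted WT tumours, the difference was 0.19 with an interval of -0.27 to 0.66 (adjusted p = 0.406).

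Unsorted WT library 1 was low for Tmem119, and without it the Tmem119 difference between GFP- cells and unsorted tumours was -1.96 (adjusted p = 0.00341). The median log2 difference between GFP- cells and unsorted WT tumours was 3.95 for the pan-macrophage genes (17 of 17 higher), 4.58 for the monocyte-derived macrophage genes (20 of 20 higher) and 2.83 for the other microglia-enriched genes (18 of 20 higher, 1 lower), beside 2.79 for the 9 genes.

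When every library was scaled to the same mean of the pan-macrophage genes, so that levels are read per macrophage RNA and not per total RNA, 8 of the 9 genes were lower in GFP- cells than in unsorted WT tumours, and Siglech was not called (log2 difference 0.56, adjusted p = 0.0956). This scaling moved the median of all genes by -4.04, and 88.5% of all genes were called lower and 2.48% higher, so a lower value here is the background. P2ry12 stood at 8.14% ± 2.03 of the pan-macrophage geometric mean in GFP- cells, against 15.9% ± 0.218 in unsorted WT tumours (SD, n = 3 each). For Sall1 the values were 4.22% ± 2.19 in GFP- cells and 11.4% ± 2.11 in unsorted WT tumours. Both genes were lower on this scale in every GFP- library than in every unsorted WT library. Their log2 differences, -1.01 for P2ry12 and -1.61 for Sall1, were smaller falls than the median of all genes, at -3.93. Unsorted tumours also hold GL261 cells, and WT GFP+ cells had 147.5, 96.9 and 115 normalized counts of P2ry12. How much of the unsorted values came from macrophages was not tested.

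In unsorted tumours, which hold tumour and host cells together, 4 of the 9 genes differed between hosts. Olfml3, Tmem119, Cx3cr1 and P2ry13 were lower in Pfp/Rag2-/- than in WT tumours, none was called higher, and P2ry12, Sall1, Gpr34, Siglech and Fcrls were not called. Of all 15448 genes tested, 15.1% were called lower and 14.8% higher. The median log2 difference of the 9 genes was -0.47, beside 0.05 over all genes.

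Olfml3 gave the clearest difference. It had 776, 785 and 939.5 normalized counts in Pfp/Rag2-/- tumours, against 2830.5, 3803 and 3769 in WT tumours, with no overlap. Its log2 difference was -2.05 (SE 0.14, adjusted p = 0.000161). Tmem119 had 1460.5, 1729 and 1312 in Pfp/Rag2-/- tumours, against 2598, 13639.7 and 14211 in WT tumours, a log2 difference of -2.42 (SE 0.61, adjusted p = 0.0236). All 3 Pfp/Rag2-/- libraries were below all WT libraries. Without WT library 1 the difference was -3.22 (adjusted p = 3.66e-05), and leaving out any of the other 5 libraries moved the adjusted p to 0.0602 to 0.0776.

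Cx3cr1 had 445, 354 and 332 normalized counts in Pfp/Rag2-/- tumours, against 524, 968 and 888 in WT tumours. Its log2 difference was -1.03 (SE 0.24, adjusted p = 0.0175). P2ry13 had 114, 84.2 and 78.4 in Pfp/Rag2-/- tumours, against 155, 195 and 165 in WT tumours, and fell by 0.90 on the log2 scale (SE 0.20, adjusted p = 0.0135). The groups were separate for both genes. The call of Cx3cr1 was lost without Pfp/Rag2-/- library 2 or 3 or WT library 3 (adjusted p 0.0577 to 0.0699), and that of P2ry13 without Pfp/Rag2-/- library 2 or 3 (0.0515 and 0.0623). Both were also lost with all 18 libraries in 1 fit, with an adjusted p of 0.204 for Cx3cr1 and of 0.237 for P2ry13.

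P2ry12 had 185, 143 and 114 normalized counts in Pfp/Rag2-/- tumours, against 199, 192 and 211 in WT tumours. Although these groups did not overlap, the log2 difference of -0.47 (95% interval -0.93 to -0.02) did not pass after adjustment (adjusted p = 0.107), although it did without Pfp/Rag2-/- library 1 (-0.65, adjusted p = 0.0442). Fcrls was the one member with all 3 Pfp/Rag2-/- libraries above the WT libraries, at 466, 408 and 457 in Pfp/Rag2-/- tumours, against 175, 269 and 365 in WT tumours. Its log2 difference of 0.78 had a 95% interval of 0.19 to 1.36 (adjusted p = 0.0521), and it passed with DESeq2 on recovered reads (adjusted p = 0.0225), without WT library 1 (0.0368) and without WT library 3 (0.0195).

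The other 3 members overlapped between hosts, and the share of all genes that do so was not counted. Gpr34 had 117, 89.7 and 71.2 normalized counts in Pfp/Rag2-/- tumours, against 113, 83.7 and 74.0 in WT tumours, with a log2 difference of 0.03 (95% interval -0.56 to 0.63). Siglech had 74.6, 39.9 and 43.3 in Pfp/Rag2-/- tumours, against 36.0, 44.1 and 56.6 in WT tumours, with a difference of 0.17 (-0.56 to 0.90). Sall1 had 179, 128 and 94.7 in Pfp/Rag2-/- tumours, against 114, 160.1 and 155 in WT tumours, with a difference of -0.13 (-0.74 to 0.48). The intervals of these genes hold differences of more than 0.5 log2 units in either direction for Gpr34 and Siglech, so equal levels are not shown.

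**Figure D3:**
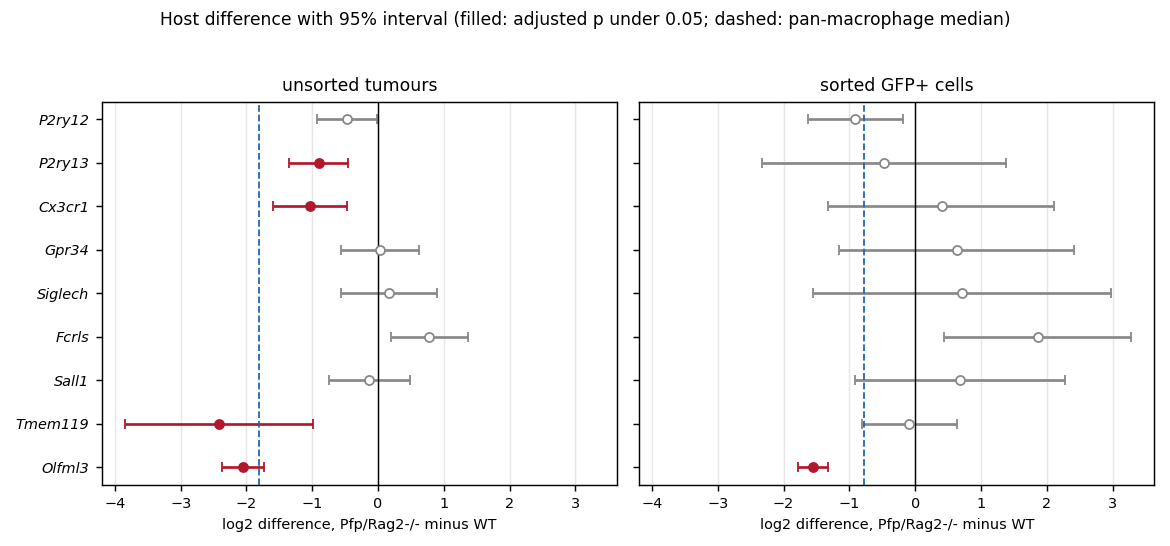
Log2 difference between Pfp/Rag2-/- and WT hosts for each gene with its 95% interval, in unsorted tumours (left) and sorted GFP+ cells (right), with filled points for an adjusted p under 0.05 and a dashed line at the median of the pan-macrophage genes. Olfml3 lies below 0 in both, and 7 of the 9 genes lie to the right of the pan-macrophage median of -1.81 in unsorted tumours. The median over all genes there is 0.05, also to the right, and 93.8% of all genes are called higher when scaled to the pan-macrophage genes.

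All 17 pan-macrophage genes were lower in Pfp/Rag2-/- unsorted tumours, with a median log2 difference of -1.81, and 14 of the 19 monocyte-derived macrophage genes tested were lower, with a median of -2.02. Arg1 had 14.2, 5.44 and 6.31 normalized counts in Pfp/Rag2-/- tumours, against 4181, 806 and 1345 in WT tumours. Fcer1g, the signalling chain of Fc receptors, had a log2 difference of -2.20 (adjusted p = 7.06e-05), and Trem2, a lipid receptor of macrophages, one of -1.06 (adjusted p = 0.0186). Of 10 T cell genes tested, 9 were lower in this host, which lacks mature T cells. Neuronal genes, of which 1 of 7 was called higher, summed to 1786 to 6175 in Pfp/Rag2-/- tumours, against 954 to 1713 in WT tumours, with the highest sum in Pfp/Rag2-/- library 1. The part of brain tissue in the values of the 9 genes was not tested.

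Scaled to the pan-macrophage genes, 7 of the 9 genes were higher in unsorted Pfp/Rag2-/- tumours than in WT tumours. The scaling moved the median of all genes by 1.74 on the log2 scale, and 93.8% of all genes were then called higher and 1.38% lower, so the count is below the background share. Relative to macrophage RNA, Fcrls was at 114%, 116% and 124% of the pan-macrophage geometric mean in Pfp/Rag2-/- tumours, against 14.1%, 22.6% and 27.2% in WT tumours, a log2 difference of 2.52 (adjusted p = 3.55e-07). P2ry12 was at 45.3%, 40.9% and 30.8% in Pfp/Rag2-/- tumours, against 16.1%, 16.1% and 15.7% in WT tumours (log2 difference 1.27, adjusted p = 5.17e-05). The differences of Siglech, Gpr34 and Sall1 on this scale were 1.92, 1.78 and 1.61, and those of P2ry13 and Cx3cr1 were 0.84 and 0.71. Those of P2ry12, Sall1, P2ry13 and Cx3cr1 were smaller than the shift of the median itself. The median over all genes on this scale was 1.79, and of the 9 genes Fcrls and Siglech alone lay above it. Tmem119 (-0.67) and Olfml3 (-0.30) were not called.

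The same scaling gave a median log2 difference of -0.27 for the monocyte-derived macrophage genes, with 1 of 19 higher and 4 lower, and of 1.58 for the other microglia-enriched genes, with 15 of 19 higher and none lower. All 7 neuronal, 8 oligodendrocyte and 10 endothelial genes tested were likewise higher on this scale.

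**Figure D4:**
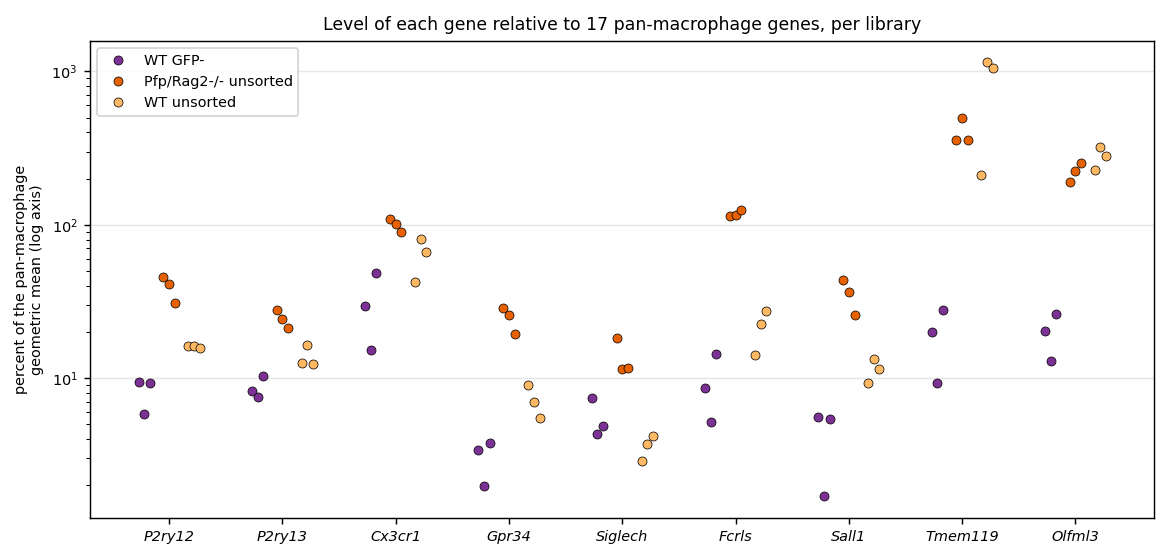
Level of each gene as a percent of the geometric mean of 17 pan-macrophage genes (log axis), in WT GFP- cells and in unsorted tumours of Pfp/Rag2-/- and WT hosts, with a point per library. For P2ry12, P2ry13, Cx3cr1, Gpr34, Siglech, Fcrls and Sall1 all 3 Pfp/Rag2-/- unsorted libraries lie above all WT unsorted libraries. With this scaling 93.8% of all genes are called higher in Pfp/Rag2-/- unsorted tumours, and the share of all genes that separate was not counted.

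In sorted GFP+ cells 1 of the 9 genes differed between hosts, where 15.3% of 14807 genes tested were called lower and 15.0% higher. Olfml3 had 815.5, 688 and 715 normalized counts in Pfp/Rag2-/- GFP+ cells, against 1935.5, 2175 and 2399 in WT GFP+ cells, a log2 difference of -1.55 (SE 0.10, adjusted p = 0.000165). The groups did not overlap, and without both GFP+ libraries numbered 1 the difference of Olfml3 was -1.70 (adjusted p = 0.000242). Scaled to the pan-macrophage genes, none of the 9 was called by limma, with 0.149% of all genes called and 1 member, Fcrls, at an unadjusted p under 0.05 (log2 difference 2.63). Tmem119 had 3404, 4742 and 4889.6 in Pfp/Rag2-/- GFP+ cells, against 4224, 3063 and 7288 in WT GFP+ cells, and differed by -0.09 (95% interval -0.81 to 0.64).

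P2ry12 had 96.8, 54.2 and 46.1 normalized counts in Pfp/Rag2-/- GFP+ cells, against 147.5, 96.9 and 115 in WT GFP+ cells (log2 difference -0.91, adjusted p = 0.0608). Fcrls had 191, 59.7 and 67.2 in Pfp/Rag2-/- GFP+ cells, against 21.1, 13.3 and 51.6 in WT GFP+ cells (log2 difference 1.86, adjusted p = 0.0546). The groups did not overlap for either gene. In this comparison deviations from the group means correlated at 0.616 and 0.483 for libraries numbered 1 and 2, but at 0.102 for number 3. A fit with the number as a block called P2ry12 lower (adjusted p = 0.0193) and Fcrls higher (adjusted p = 0.0333), for 3 members called in all. Cx3cr1, Gpr34, Siglech, Sall1 and P2ry13 overlapped between hosts, with 95% intervals that spanned more than 3 log2 units, and Pfp/Rag2-/- library 1 was the highest of its 3 for each. Without both libraries numbered 1 the log2 difference of P2ry12 was -1.07 (adjusted p = 0.0274), that of Fcrls 1.23 (adjusted p = 0.199), and those of Cx3cr1 and Gpr34 were -0.31 and -0.01. The pan-macrophage genes had a median of -0.78 between hosts here, with none of 17 called.

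The test of the difference between the host effect in unsorted tumours and that in GFP+ cells, an interaction in 12 libraries, called none of the 9 genes and 0.934% of all 16161. With limma, 2 of them had an unadjusted p under 0.05. Tmem119 had a difference of log2 differences of -2.33 (95% interval -4.01 to -0.65, limma adjusted p = 0.131), and Olfml3 one of -0.50 (-0.90 to -0.10, limma adjusted p = 0.165). edgeR on recovered reads called none and DESeq2 called 1, Tmem119 (adjusted p = 0.0219). Without WT unsorted library 1 Tmem119 (adjusted p = 0.0116) and Olfml3 (adjusted p = 0.0350) passed.

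In WT tumours 7 of the 9 genes were higher in unsorted tumours, where 10.3% of all genes were called higher and 6.46% lower. Fcrls was 10.2-fold higher, Cx3cr1 9.87-fold, Sall1 8.92-fold, Gpr34 8.40-fold and P2ry13 6.69-fold, with adjusted p between 0.00872 and 0.0170. P2ry12, at 1.69-fold, and Olfml3, at 1.59-fold, also passed. The call of P2ry12 was lost under edgeR on recovered reads (adjusted p = 0.0502) and without GFP+ library 2 or 3 or unsorted library 2 or 3 (0.0750 to 0.129). That of Olfml3 was lost without GFP+ library 1 or 2 or unsorted library 2 or 3 (0.0580 to 0.0943). Siglech, at 3.30-fold, did not pass (adjusted p = 0.0592), but it did with DESeq2 on recovered reads (adjusted p = 0.0367) and without GFP+ library 1 (adjusted p = 0.0248). Tmem119 did not pass (log2 difference 0.81, adjusted p = 0.425), but it did without unsorted library 1 (1.61, adjusted p = 0.0249). Without WT unsorted library 3, Gpr34 and P2ry13 alone kept their calls.

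In Pfp/Rag2-/- tumours 6 of the 9 genes were higher in unsorted tumours than in GFP+ cells, where 19.1% of all genes were, and Tmem119 was lower, where 11.1% were. Sall1 was 5.08-fold higher (adjusted p = 0.00584) and Fcrls 4.79-fold (adjusted p = 0.00742), and the adjusted p of P2ry12, Cx3cr1, Gpr34 and P2ry13 lay between 0.0258 and 0.0454. Tmem119 had 1460.5, 1729 and 1312 in unsorted Pfp/Rag2-/- tumours, against 3404, 4742 and 4889.6 in their GFP+ cells, and its log2 difference of -1.52 (SE 0.16, adjusted p = 0.00160) was the only lower call. The calls of Cx3cr1, Gpr34 and P2ry13 were lost under edgeR on recovered reads (adjusted p 0.0601 to 0.125) and with any library other than GFP+ library 1 left out (0.0586 to 0.138). That of P2ry12 was lost without GFP+ library 2 or 3 or unsorted library 1 or 2 (0.0761 to 0.0880), and that of Tmem119 with all 18 libraries in 1 fit (0.0531). Without GFP+ library 1, Siglech was also called higher (log2 difference 2.21, adjusted p = 0.00958), and the differences of Gpr34 and P2ry13 were 3.28 and 3.20.

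Across the 18 libraries the 7 genes apart from Tmem119 and Olfml3 had pairwise Pearson r of 0.87 to 0.98 on the log2 scale, while Tmem119 had 0.49 to 0.76 with the other 8 and Olfml3 0.55 to 0.78. These points share their groups, so r mostly follows the contrasts between groups. The 10 other genes, of 10655 compared, whose profile was most like the mean of the 9 were F11r, Lmo2, Cd180, Tnfrsf21, Slc29a3, Tifab, Ly86, Abcg1, Gas6 and Grap, with r between 0.991 and 0.996 over 18 libraries. The genes compared had been limited to named genes above a minimum mean in the WT GFP- libraries, where most members are high. Presence in GFP- cells was thus a condition of entry and is not read as a result. Ly86 and Cd180 encode a pair of receptor proteins of the innate immune system, Abcg1 is a cholesterol exporter and Gas6 is the ligand of the Axl family of receptors.

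Ligands, signalling partners and regulators of the 9 genes were listed beside them. In unsorted tumours of the 12 ligands and partners 2 were higher in Pfp/Rag2-/- than in WT and 4 lower. Of all genes tested in this comparison, 14.8% were called higher and 15.1% lower, which is the background for each list count from here on. Cx3cl1, the ligand of Cx3cr1, had 684, 216 and 233.5 normalized counts in Pfp/Rag2-/- tumours, against 129, 125 and 324 in WT tumours, which overlapped (log2 difference 0.90, adjusted p = 0.233). Entpd1, the ectoenzyme CD39 that degrades ATP and ADP, was lower (log2 difference -1.52, adjusted p = 0.00222). Kcnk13, the THIK-1 potassium channel of microglia, was higher (1.19, adjusted p = 0.00877), but it was also present in culture, at 57.6, 47.1 and 42.0 normalized counts.

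Of the 10 microglial transcription factors, 5 were lower and 1 higher in unsorted Pfp/Rag2-/- tumours. Spi1 had 118, 123 and 132 normalized counts in Pfp/Rag2-/- tumours, against 459, 449 and 487 in WT tumours (log2 difference -1.90, adjusted p = 0.000110). Irf8 had a log2 difference of -2.49 (adjusted p = 0.000321), while Sall1, a member, had one of -0.13. Of the TGF-beta axis that sustains microglial identity, 3 of 10 were lower and 1 higher, with Nrros, which anchors latent TGF-beta on microglia, at -1.45 (adjusted p = 0.00144). In the CSF1R survival axis 5 of 6 were lower, and Il34, a CSF1R ligand made by neurons, was not called (-0.78, adjusted p = 0.0507).

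Relatives by family were called lower more often than higher in unsorted Pfp/Rag2-/- tumours. Of the 6 other P2Y receptor family genes tested, 4 were lower, including P2ry6, a UDP receptor of macrophages (log2 difference -1.97, adjusted p = 0.000454), and P2ry1 was higher (0.50, adjusted p = 0.0229). Of the 7 Siglec and Fc receptor-like relatives tested, 5 were lower and none higher, with Fcrlb at -3.06 (adjusted p = 0.000762). Of 17 genes of activated, disease-associated microglia, 10 were lower and none higher, with a median log2 difference of -1.13. Clec7a, a receptor for fungal glucans, had -2.22 (adjusted p = 0.000141), and Igf1 had -2.09 (adjusted p = 0.0203). Of the 19 other microglia-enriched genes tested, 3 were higher and 8 lower, with a median of -0.17.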

How the data were processed

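Messenger RNA was sequenced in 18 libraries, 3 in each of 6 groups. The deposited table holds a signal that the authors made by dividing read counts by a size factor per library; per the submitters' processing notes STAR 2.5.2b, DESeq2 and GRCm38 were used. Information on read counter, annotation release and strand setting: not given in the sources used here. Of all values, 100% were whole multiples of 1 read per column (tolerance 0.05), so reads were recovered, 19172814 to 21141662 per library. Floors and intervals from reads cover counting error only.

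Gene names and exon lengths came from GENCODE vM21 (48349 of 48795 genes named). Each comparison was fitted alone with limma 3.58.1 (trend) in R 4.3.3 on log2(value + 1), which understates changes of low genes. Genes needed a value of at least 10 in at least 3 libraries, and were called at a two-sided Benjamini-Hochberg adjusted p under 0.05 over all genes. The fit was tested on simulated data. Folds are on that scale.

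The members and lists were chosen with earlier results of these data known. Named are all members, up to 2 highest and 2 lowest called genes of a list and any list gene given with its value, the 10 genes most like the members, overlapping genes, Prf1 and Rag2. Alternatives were log2(value + 10), no filter, a filter at 50, TMM factors, edgeR 4.0.16 and DESeq2 1.42.0 on recovered reads, all 18 libraries in 1 fit, a replicate block, scaling to pan-macrophage genes, and leaving out each library. The replicate numbers may pair the GFP+ libraries of the 2 hosts, where deviations from the group means correlated at 0.616, 0.483 and 0.102 for numbers 1, 2 and 3. The labels do not say what a number shares. Leaving out both GFP+ libraries numbered 1 was added after the data were seen. Figures were drawn with matplotlib 3.10.9. For WT GFP- and WT GFP+ libraries such deviations correlated at 0.212, 0.068 and 0.32 for numbers 1, 2 and 3. Pairing by number was not assumed there or in other comparisons. Some genes of the lists are not reported here by name.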

Additional observations from a re-analysis of the deposited data

How the results depend on the processing

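Over 9 comparisons, 1014 values of single genes under an alternative kept direction and side of the threshold, 55 lost and 32 gained a call, and 36 changed sign. Members called in unsorted tumours by host were 4, and 2 with all 18 libraries in 1 fit, 7 with pan-macrophage scaling and 1 to 5 with a library left out. In GFP+ cells by host the count was 1, and 2 with a filter at 50, 3 with DESeq2, 3 with all 18 libraries, 3 with the replicate block, 0 with pan-macrophage scaling, 2 without both libraries numbered 1 and 1 to 2 with a library left out. With a library left out it was 2 to 8 for WT unsorted against GFP+ cells, and 3 to 8 for Pfp/Rag2-/- unsorted against GFP+ cells, where edgeR gave 4, beside 7 in both with all libraries. For WT GFP+ cells against culture it was 6, and 3 with a filter at 50. For Pfp/Rag2-/- GFP+ cells it was 5, and 8 without a filter, 3 with a filter at 50, 8 with DESeq2 and 8 with all 18 libraries. Members at or near 0 in culture enter only through libraries where they are high, so the counts against culture are not read as a result. Shares of all genes called under the alternatives are not given here. For the interaction it was 0, and 1 with DESeq2 and 0 to 2 with a library left out. A filter at 50 tests fewer low members; other causes were not tested.

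Pan-macrophage scaling moves the median of all genes by -4.04 for GFP- cells against unsorted WT tumours, and by 1.74 and 0.77 for hosts in unsorted tumours and in GFP+ cells, so smaller differences of the opposite sign change sign by its construction. It reversed, for GFP- cells against unsorted WT tumours, P2ry12 (-1.01), Sall1 (-1.61), Cx3cr1 (-1.13), Olfml3 (-3.85), Gpr34 (-1.27), Fcrls (-1.25) and P2ry13 (-0.67). It reversed, for hosts in unsorted tumours, Cx3cr1 (0.71), P2ry13 (0.84), P2ry12 (1.27) and Sall1 (1.61), and, for hosts in GFP+ cells, Tmem119 (0.69) and P2ry13 (0.30). The remaining sign changes concerned uncalled differences. TMM factors gave 0 for Gpr34 by host in unsorted tumours. Without both GFP+ libraries numbered 1, the host difference in GFP+ cells was 0.03 for Tmem119, -0.31 for Cx3cr1 and -0.01 for Gpr34, and the interaction was 0.04 for Gpr34, 0.01 for Siglech and 0.33 for P2ry13. With a library left out, the host difference in unsorted tumours ranged over -0.15 to 0.21 for Gpr34, -0.11 to 0.34 for Siglech and -0.36 to 0.09 for Sall1. In GFP+ cells it ranged over -0.37 to 0.25 for Tmem119, -0.22 to 1.06 for Cx3cr1, -0.17 to 1.20 for Gpr34, -0.32 to 1.51 for Siglech and -1.36 to 0.10 for P2ry13. The interaction ranged over -1.17 to 0.21 for Gpr34, -1.34 to 0.49 for Siglech and -1 to 0.45 for P2ry13, and GFP- against GFP+ cells over -0.64 to 0 for Tmem119.

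Where pairing by number was not assumed, the replicate block changed the call of Tmem119 in GFP- against GFP+ cells (adjusted p = 0.0370). It also changed that of P2ry12 in WT unsorted against GFP+ cells (adjusted p = 0.0629), and no other call outside the GFP+ host comparison. Low reads limit the members in GFP+ cells, where Siglech had 6 to 102 reads and Gpr34 5 to 54.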
